A study of Mus musculus with 8 samples.

Results

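The transcription factors Zeb1, Zeb2, Snai1, Snai2, Twist1, Twist2 and Prrx1, the classical inducers of epithelial-mesenchymal transition (EMT), were followed across the cells of mouse colon tumours. They were taken by gene symbol, and all 7 were found among 20276 gene symbols. Single cells of tumours grown from transplanted colon tumour organoids had been sorted 1 per well into 8 plates of 384 wells, with 1 plate for each mouse, and sequenced from the 3′ ends of transcripts (SORT-seq) with unique molecular identifiers (UMIs).

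FibCtrl denotes 4 mice negative for a Cre-ERT2 transgene and FibΔZeb1 denotes 4 mice positive for it. Zeb1 was flanked by loxP sites in both groups, and all mice received tamoxifen in the diet. The labels name the driver Col1a1Cre-ERT2, whereas the methods of the study name Col1a2-CreERT2. Mice were age-matched littermates of both sexes, and no separate litters are given. The organoids did not come from the recipient mice, so their epithelium kept Zeb1 in both groups. The transgene is driven by a collagen promoter, which restricts it to cells that make collagen.

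ZEB1 and ZEB2 are zinc finger and homeodomain repressors. SNAI1 (Snail) and SNAI2 (Slug) are zinc finger repressors that bind the same CACCTG-type E-boxes in epithelial genes such as those of cell junctions. TWIST1 and TWIST2 are basic helix-loop-helix factors that bind E-boxes of the form CANNTG together with E proteins, and PRRX1 is a homeodomain factor of mesenchymal lineages. In tumour epithelium they are known for dampening epithelial genes, and several are also used by normal mesenchymal, myeloid or lymphoid cells.

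The promoters of Snai1 and Twist1 are shown, Twist1 because it was the factor highest in epithelial wells and Snai1 because, among the members matched, only its window held a CANNTG. RefSeq promoter sequences for build GRCm38.p6 were matched for 5 of 7 members, Zeb2, Snai1, Twist1, Twist2 and Prrx1. The 250 bases before the start site are printed 5′ to 3′ with every CANNTG in capitals, both strands being covered because the motif reads the same on each. The Snai1 window is chr2:167537945-167538194 and the Twist1 window is chr12:33957421-33957670, both on the plus strand.
Snai1: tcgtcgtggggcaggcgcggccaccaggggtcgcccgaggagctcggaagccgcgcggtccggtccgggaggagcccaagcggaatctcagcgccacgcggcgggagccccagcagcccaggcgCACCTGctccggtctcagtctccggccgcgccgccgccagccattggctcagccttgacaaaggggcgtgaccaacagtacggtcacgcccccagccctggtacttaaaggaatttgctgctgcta
Twist1: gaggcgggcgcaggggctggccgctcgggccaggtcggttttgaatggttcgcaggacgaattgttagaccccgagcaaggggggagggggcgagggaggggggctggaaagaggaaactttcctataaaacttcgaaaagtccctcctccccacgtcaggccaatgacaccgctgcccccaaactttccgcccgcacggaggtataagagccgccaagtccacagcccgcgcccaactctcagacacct

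The Snai1 window held 1 match, CACCTG, which began 126 bases before the start site. The windows of Twist1, Twist2, Zeb2 and Prrx1 held none. Of 32851 promoter windows of this length, 17.2% held CACCTG or its reverse complement CAGGTG, which are forms of CANNTG, and 66.2% held any CANNTG. These matches describe letters only.

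On GRCm38, GENCODE M21 places Zeb1 on chromosome 18 (5591860 to 5775467, plus strand), Zeb2 on chromosome 2 (44983632 to 45117395, minus) and Snai1 on chromosome 2 (167538195 to 167542814, plus). Snai2 lies on chromosome 16 (14705852 to 14709385, plus), Twist1 on chromosome 12 (33957671 to 33959829, plus), Twist2 on chromosome 1 (91801461 to 91848028, plus) and Prrx1 on chromosome 1 (163245119 to 163313710, minus). All are protein-coding genes. Among overlapping genes, Gm10125 on the strand opposite to Zeb1 was listed in the tables, with 1 transcript in fibroblast wells against 226 of Zeb1.

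A plate held 981881 to 5905188 transcripts of cells, and 2051 of 3072 wells had at least 500. Cells were placed in classes from marker genes that include none of the 7 factors, which gave 185 fibroblast, 383 epithelial, 377 myeloid and 229 lymphoid wells. A further 36 wells with fibroblast markers also held Ptprc (CD45) or Epcam and were removed, 11 wells had mural and 2 mesothelial markers, and 828 wells had no class. Among the gene symbols were 12 of 12 fibroblast, 10 of 10 epithelial, 30 of 31 myeloid and 24 of 28 lymphoid markers. No marker of another class stood among the 10 leading genes of any class. The wells were placed with these same lists, so this is no independent check of the class names. Depth differed between classes, with medians of 11853 transcripts per fibroblast well, 23680 per epithelial, 2638 per myeloid and 3165 per lymphoid well.

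Levels are given per 1000000 transcripts of the class on a plate (CPM), as the mean and SD over plates with at least 10 wells of the class. SORT-seq counts transcripts by their 3′ end, so a level was not divided by gene length. For some values with few counts an exact Poisson interval is given, which covers counting error only. Other values with few counts are given without one. The fibroblast class had 6 such plates, lacking FibCtrl replicate 2 with 3 wells and FibΔZeb1 replicate 2 with 6 wells. The lymphoid class also had 6, lacking FibCtrl replicate 2 with 4 wells and FibΔZeb1 replicate 3 with 9 wells, and the others had 8.

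Among the 7 factors, fibroblast wells had the highest mean level of 5, namely Zeb1, Snai1, Snai2, Twist2 and Prrx1. The others led elsewhere, Zeb2 in myeloid wells and Twist1 in epithelial wells. Prrx1 was the most restricted, with 91.7% of its transcripts in the 4 classes lying in fibroblast wells, and Twist1 was the most abundant, with 89.5% of its transcripts in epithelial wells. These shares also depend on how many wells of each class were sorted. The 4 classes held 1070 of 2087 Prrx1 transcripts and 6059 of 8080 Twist1 transcripts. The rest lay in wells outside these classes, so the shares do not cover them.

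**Figure D1:**
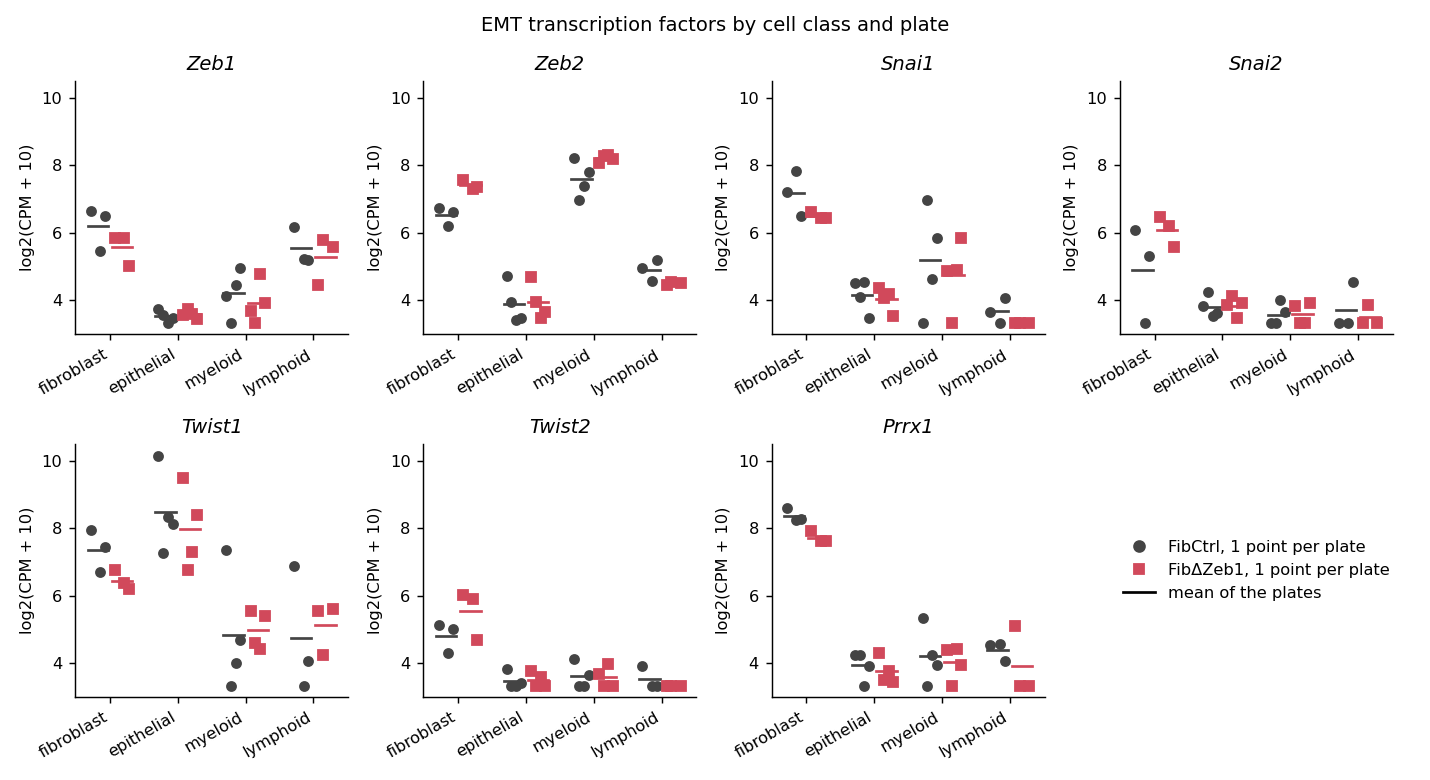
Each panel shows 1 factor, with log2(CPM + 10) on the vertical axis and the 4 cell classes on the horizontal axis. Each point is a plate with at least 10 wells of the class (circles FibCtrl, squares FibΔZeb1) and bars are means. On each plate with 10 or more fibroblast wells, Prrx1 and Twist2 stand highest in fibroblast, Zeb2 in myeloid and Twist1 in epithelial wells.

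Prrx1 reached 379, 291 and 298 CPM in fibroblast wells of FibCtrl replicates 1, 3 and 4, and 232, 185 and 185 CPM in those of FibΔZeb1. Its mean was 262 ± 75.8 CPM (SD, n = 6) in fibroblast wells, 9.64 ± 9.35 CPM in lymphoid wells (n = 6), 9.08 ± 9.69 CPM in myeloid wells (n = 8) and 4.86 ± 4.0 CPM in epithelial wells (n = 8). The highest plate of another class had 30.4 CPM in myeloid wells, below every fibroblast value. Lymphoid, myeloid and epithelial levels overlapped.

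Twist2, the second Twist gene and a regulator of dermal and other mesenchymal cells, was the scarcest of the 7. It had 25.3, 9.85 and 21.9 CPM in fibroblast wells of FibCtrl replicates 1, 3 and 4 and 55.3, 50.1 and 15.9 CPM in those of FibΔZeb1. The fibroblast mean of 29.7 ± 18.6 CPM (SD, n = 6) lay above 2.35 ± 2.96 CPM in myeloid, 1.31 ± 1.76 CPM in epithelial and 0.869 ± 2.13 CPM in lymphoid wells. The fibroblast range did not touch the next one, and the other classes, each with no more than 20 transcripts in all, overlapped.

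Snai2, which marks neural crest and many mesenchymal cells, averaged 44.6 ± 27.9 CPM in fibroblast wells (SD, n = 6) and from 2.27 to 4.41 CPM in the other classes. FibCtrl replicate 3, with 12 fibroblast wells, had no Snai2 transcript (exact interval up to 18.2 CPM), so the fibroblast range of 0 to 78.3 CPM overlapped that of epithelial wells. It was higher in fibroblast than in epithelial wells on 5 of 6 plates.

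Snai1, an inducer of EMT whose protein is short-lived, averaged 113 ± 56.2 CPM in fibroblast wells (SD, n = 6), with a range of 76.4 to 217 CPM. It averaged 33.2 ± 38 CPM in myeloid wells, 7.81 ± 4.64 CPM in epithelial wells and 1.55 ± 2.73 CPM in lymphoid wells. Fibroblast and myeloid ranges overlapped because FibCtrl replicate 2 had 116 CPM in 22 myeloid wells, resting on 6 transcripts. On each of the 6 plates with both classes the fibroblast level was higher.

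Zeb1, the gene deleted in the fibroblast lineage of FibΔZeb1 mice, averaged 54.1 ± 26.8 CPM in fibroblast wells over both genotypes (SD, n = 6). Lymphoid wells followed at 35.4 ± 17.4 CPM (n = 6), from 12.1 to 62.6 CPM, which overlapped the fibroblast range of 22.3 to 91.5 CPM. Fibroblast exceeded lymphoid levels on 4 of 5 shared plates. Zeb1 was lower in myeloid wells at 8.25 ± 7.88 CPM and lowest in epithelial wells at 1.82 ± 1.19 CPM, where 24 transcripts were found among 383 wells.

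Zeb2, a factor of macrophage and dendritic cell identity as well as of EMT, was highest in myeloid wells at 241 ± 71.4 CPM (SD, n = 8). Fibroblast wells had 122 ± 45.6 CPM (n = 6), lymphoid wells 16.6 ± 5.91 CPM and epithelial wells 6.13 ± 6.54 CPM. Myeloid levels exceeded fibroblast levels on 6 of 6 plates although their ranges overlapped, and the fibroblast and lymphoid ranges did not overlap.

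Twist1, a mesodermal regulator and EMT inducer, went against the pattern of the others. In epithelial wells of FibCtrl replicates 1 to 4 it had 1112, 144, 314 and 268 CPM, and in those of FibΔZeb1 704, 98.7, 145 and 328 CPM. Fibroblast wells had 239, 93.6 and 162 CPM in FibCtrl replicates 1, 3 and 4 and 98.3, 73.1 and 63.6 CPM in FibΔZeb1. Epithelial levels were higher than fibroblast levels on 6 of 6 plates, with means of 389 ± 348 CPM (SD, n = 8) and 122 ± 66.9 CPM (n = 6). Both replicates numbered 1, which were on the same flow cell, held the highest epithelial levels. Both replicates numbered 2 were on that flow cell too and held the lowest. Myeloid (33.5 ± 49.4 CPM) and lymphoid wells (32.9 ± 39.6 CPM) overlapped each other.

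RNA that may leak between wells was gauged from the levels of 4 fibroblast and 6 epithelial marker genes in wells of other classes. Such levels cannot be told apart from a low level of the cells' own or from wells placed in the wrong class. In epithelial wells, fibroblast markers reached 0.506 to 4.02% of their fibroblast level, an amount that carries at most 9.58 CPM of Twist1. On the 6 plates with at least 10 wells of both classes, 145 to 1103 CPM of epithelial Twist1 lay beyond it. Both replicates numbered 2 were not among these plates. In fibroblast wells, epithelial markers reached 1.33 to 4.63% of their epithelial level and would carry 1.94 to 51.6 CPM of Twist1, with 52.1 to 187 CPM beyond it on 6 of 6 plates. Twist1 in myeloid wells, by contrast, differed from the amount so carried by -23.2 to 73 CPM, and in lymphoid wells by -11.7 to 40.2 CPM. It was above that amount on 6 of 8 myeloid and 4 of 6 lymphoid plates. Of the traces in epithelial wells, Prrx1 was at or below what fibroblast RNA carries on 3 of 6 plates and Zeb1 on 2 of 6.

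The same question was put to wells one at a time, since a class mean does not tell how many cells hold a transcript. After each well was thinned to 10000 transcripts, 100 fibroblast and 282 epithelial wells were left and 85 and 101 were too shallow. Prrx1 was then found in 80% of fibroblast wells (exact 95% interval 70.8 to 87.3%) and in 5.32% of epithelial wells (3.01 to 8.62%). Zeb2 was found in 70% and 5.67%, Snai1 in 43% and 6.38%, Zeb1 in 41% and 2.13%, Snai2 in 27% and 2.48%, and Twist2 in 12% and 1.06%. Twist1 was found in 68% of fibroblast (57.9 to 77%) and 69.1% of epithelial wells (63.4 to 74.5%). These intervals pool the wells of all plates and cover counting error only. The shares were not corrected for RNA that may leak between wells, which by the markers above would carry up to 51.6 CPM of Twist1 in fibroblast wells. Over plates with at least 10 such wells, 5 for fibroblasts and 8 for epithelium, the mean share was 81 ± 9.60% (SD) and 5.0 ± 5.11% for Prrx1, 37.9 ± 15.8% and 2.53 ± 2.71% for Zeb1, and 64.5 ± 17.9% and 68.2 ± 21.2% for Twist1. For Twist2 it was 8.42 ± 8.29% and 0.881 ± 1.79%, a difference smaller than the spread between fibroblast plates. Without thinning the shares were 59.5% and 13.1% for Prrx1, 62.2% and 65.5% for Twist1 and 40.5% and 5.48% for Zeb1.

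**Figure D2:**
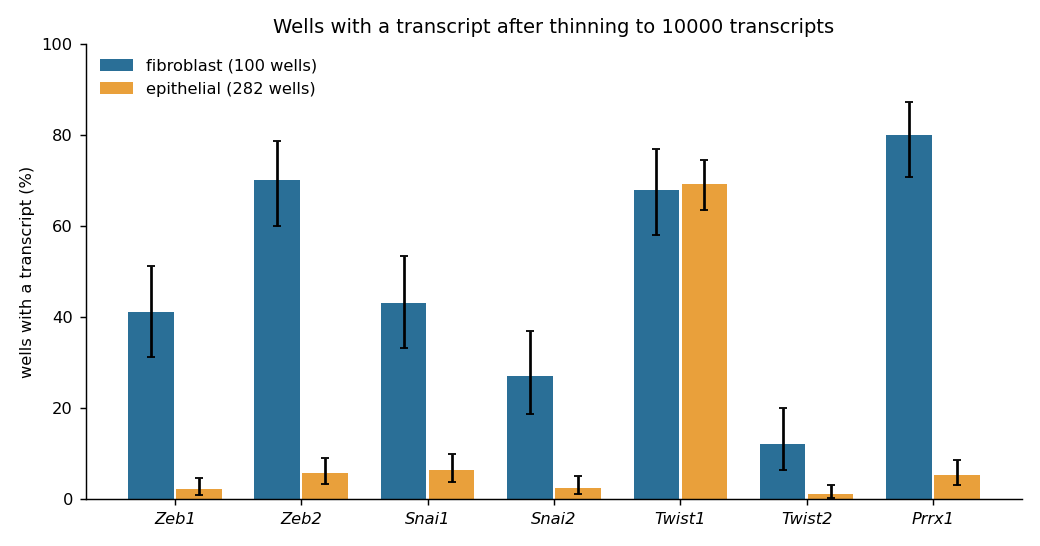
Bars give the percent of wells (vertical axis, 0 to 100%) with at least 1 transcript of each factor (horizontal axis) after thinning each well to 10000 transcripts, in fibroblast (blue) and epithelial wells (orange), with exact binomial 95% intervals that pool the wells of all plates and leave out the spread between plates. Twist1 has the nearest shares in both classes, at 68% and 69.1%, and every other factor has the higher bar in fibroblast wells. The shares are not corrected for RNA that may leak between wells.

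Fibroblasts combined several of these factors. Of the 100 thinned fibroblast wells, 1 held none, 4 held 1, 17 held 2, 28 held 3, 32 held 4, 17 held 5 and 1 held 6, and no well held all 7. Of 282 epithelial wells, 73 held none, 163 held 1, 41 held 2 and 5 held 3. Pairs of factors were then counted within fibroblast wells. For Zeb1 and Zeb2, 29 wells held both where independence gives 28.7, and for Zeb1 and Snai1 14 held both where it gives 17.6. The thinned counts of pairs had Pearson correlations from -0.24 (Zeb1 and Snai1) to 0.25 (Zeb1 and Twist1) over these 100 wells, which share plates. At 1 to a few transcripts per well, and with no correction for RNA that may leak between wells, this is a description only.

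Thinning to 1000 transcripts allowed all 4 classes to be set side by side, at 157 fibroblast, 372 epithelial, 353 myeloid and 227 lymphoid wells. Zeb2 was found in 13.6% of myeloid wells (10.2 to 17.6%) and in 10.2% of fibroblast wells (5.94 to 16%), with means over plates of 13.2 ± 5.71% (SD, n = 8) and 10.3 ± 8.14% (n = 6), which differed by less than the spread. Zeb1 was found in 6.37% of fibroblast (3.10 to 11.4%), 4.41% of lymphoid (2.13 to 7.95%) and 1.42% of myeloid wells (0.461 to 3.27%), and in 0 of 372 epithelial wells, whose exact interval reached 0.987%. Twist1 was found in 26.9% of epithelial, 19.1% of fibroblast, 4.82% of myeloid and 3.96% of lymphoid wells. Without thinning Zeb2 was found in 40.1% of myeloid and 52.4% of fibroblast wells, at median depths of 2638 and 11853 transcripts per well.

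Twist1 varied widely among tumour epithelial wells. Of the 282 epithelial wells with at least 10000 transcripts, 57 had none, the median was 185 CPM, the 90th percentile 1062 CPM and the highest well 2884 CPM. A Leiden clustering from which the 7 factors were left out divided epithelial wells into 4 clusters, named here by leading genes. Cluster 10, led by Slc7a1 (a transporter of cationic amino acids), Twist1 itself and Thbs2, had 910 CPM of Twist1. Cluster 6 (Pglyrp1, Nkd1) had 227 CPM, cluster 11 (Ly6a, Krt7) 186 CPM and cluster 14 (Lypd8, Guca2a, genes of mature colon epithelium) 24.8 CPM. Cluster 10 drew 49 wells from FibCtrl replicate 1 and 41 from FibΔZeb1 replicate 1, the plates with the highest Twist1, and cluster 14 drew 68.8% of its wells from FibΔZeb1 replicate 2.

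Within plates, cluster 10 could be set against cluster 6 where both had at least 5 wells. FibCtrl replicate 3 had 419 CPM in cluster 10 (6 wells) and 311 CPM in cluster 6 (37 wells). FibΔZeb1 replicate 3 had 312 CPM (7 wells) and 104 CPM (45 wells). FibΔZeb1 replicate 4 had 586 CPM (15 wells) and 324 CPM (22 wells). In each of these 3 plates cluster 10 was higher. Clusters 6 and 11 were in reverse order in FibΔZeb1 replicate 3, at 104 and 216 CPM. Cluster 6 was higher on the other plates with at least 5 wells of both. Clusters rest on the same wells as the levels, so no test was made. The plot of Twist1 by epithelial cluster shows how far plates of 1 cluster spread.

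**Figure D3:**
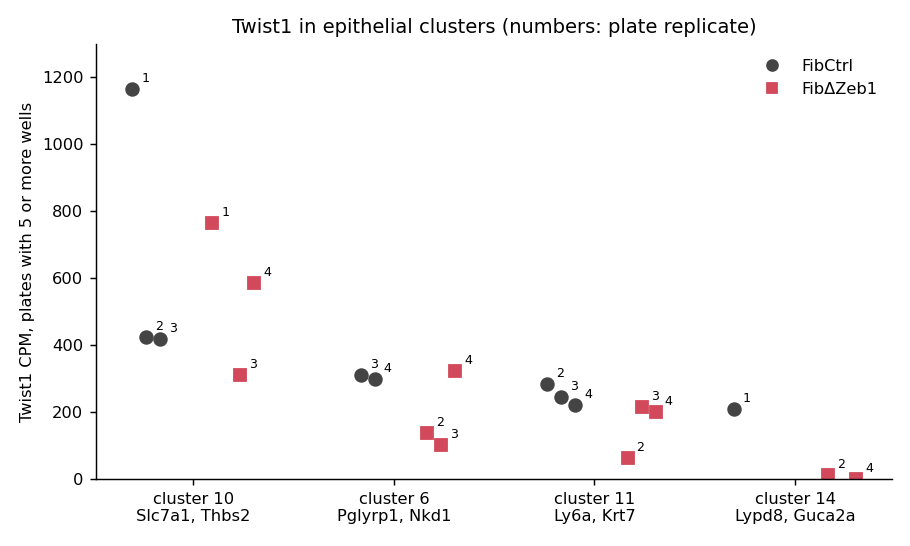
Each point is the Twist1 level (vertical axis, CPM) in the wells of 1 plate in an epithelial cluster, for plates with at least 5 wells. The horizontal axis names each cluster with 2 of its leading genes other than Twist1. Circles are FibCtrl, squares FibΔZeb1, and numbers give the replicate. Cluster 10 ranges from 312 to 1166 CPM, and cluster 14 from 0 to 209 CPM.

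Epithelial wells were also ordered on each plate by their share of marker genes and divided at the median. Wells high in Krt7, Ly6a and Wfdc2, genes of an injured or fetal-like epithelial state, had 349 ± 326 CPM of Twist1 against 429 ± 372 CPM in the low wells (SD, n = 8). They were lower on 6 of 8 plates, which did not pass an exact two-sided sign-flip permutation test (p = 0.055, smallest possible 0.0078). Wells high and low in 9 mature colon genes had 361 and 401 CPM of Twist1 (exact p = 0.31). Snai1 was 3.35 ± 4.13 CPM in the wells high in mature colon genes and 11.5 ± 7.64 CPM in the low ones. These levels rest on 0 to 7 transcripts a plate in the high wells and 2 to 26 in the low ones. Snai1 was lower in the high wells on 7 of 8 plates (exact permutation p = 0.016). Both divisions were chosen after the data were seen. This value was the only one under 0.05 among 21 unadjusted exact permutation tests over 3 divisions, the third being that of fibroblast wells by contractile and matrix genes.

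Myeloid and lymphoid wells were separated further by the marker lists of their lineages, on plates with at least 5 wells. Macrophage wells had 305 ± 72.2 CPM of Zeb2 (SD, n = 6) and neutrophil wells 90.8 ± 39.3 CPM (n = 7), and their ranges of 183 to 384 and 58.2 to 169 CPM did not overlap. Snai1 had the opposite order, 112 ± 89.7 CPM in neutrophil wells and 6.79 ± 8.73 CPM in macrophage wells, and the ranges overlapped, since the lowest neutrophil plate had none. Neutrophil wells had 49 Snai1 transcripts in 222 wells. In the Leiden clusters with neutrophil markers, Snai1 was 244 CPM in cluster 13, with 47 transcripts in 73 wells, and 5.62 CPM in cluster 2, with 2 transcripts in 185 wells. T cell wells had 38.9 ± 33.2 CPM of Zeb1 (n = 7) and B cell wells 19 ± 21.2 CPM (n = 5), with overlapping ranges.

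The classes were then compared in 1 edgeR fit over all class sums with the plate as a block, in which 8382 genes passed the expression filter. Of the 7 factors, 5 passed it, and Snai2 and Twist2 did not. The filter worked by class, so a gene could pass on its level in a single class. A call of a factor here therefore restates the levels above and is not separate support for them. Of all genes tested, 40.5% differed between fibroblast and epithelial wells at an adjusted p below the threshold of 0.05, 41.8% between fibroblast and myeloid wells and 41.3% between fibroblast and lymphoid wells, so that a call is common in these comparisons. At an unadjusted p below 0.05 the shares were 47.6, 48.2 and 48.4%. Each of the 5 tested factors was called in each. These are differences of levels on the log2 scale, and Zeb1 in fibroblasts includes the plates in which it was targeted.

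Against epithelial wells, fibroblast wells were higher in Prrx1 by 6.18 ± 0.35 (log2, SE, adjusted p = 1.28e-14), in Zeb1 by 5.26 ± 0.39, in Zeb2 by 4.74 ± 0.37 and in Snai1 by 4.21 ± 0.42. Twist1 went the other way, -1.32 ± 0.29 (adjusted p = 0.00043). In a fit with no filter, Snai2 was higher by 4.04 and Twist2 by 4.39. Higher calls were made for 21.1% and lower calls for 19.4% of all genes.

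Against myeloid wells, fibroblast wells were higher in Prrx1 by 4.79 ± 0.38, Zeb1 by 2.44 ± 0.40, Twist1 by 2.13 ± 0.35 and Snai1 by 1.98 ± 0.44. Zeb2 was lower, -1.01 ± 0.32 (adjusted p = 0.0116), and this call was lost with DESeq2 (adjusted p = 0.083). Over all genes 20.6% were called higher and 21.2% lower.

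Against lymphoid wells, fibroblast wells were higher in Snai1 by 6.02 ± 0.84, Prrx1 by 5.32 ± 0.50, Zeb2 by 3.29 ± 0.52 and Twist1 by 2.48 ± 0.43. Zeb1 differed least, 1.13 ± 0.42 (adjusted p = 0.030), and was not called without FibCtrl replicate 1 (0.090), FibCtrl replicate 4 (0.161) or FibΔZeb1 replicate 1 (0.078). Over all genes 22.5% were called higher and 18.8% lower.

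Genes around the factors were read from fixed lists, with counts over the genes of the list that passed the filter. Of 15 tested cofactors and partners, no gene was higher and 4 were lower in fibroblast than in epithelial wells. These were the E protein genes Tcf12 (-1.74) and Tcf4 (-1.30), which encode partners of TWIST, and the corepressor genes Ctbp2 (-0.72) and Hdac1 (-0.55). The list median was -0.48, beside -0.06 over all genes, and the calls stand beside 21.1% of all genes called higher and 19.4% lower. Against myeloid wells 4 were higher (Tcf4 0.83, Kdm1a 0.74, Tcf3 0.70 and Smad4 0.58) and Sin3a was lower (-0.93). Against lymphoid wells 3 were higher (Ctbp2 2.99, Smad3 1.58 and Ajuba 1.53) and Sin3a again was lower (-0.93). The shares of all genes were 20.6% higher and 21.2% lower against myeloid wells, and 22.5% and 18.8% against lymphoid wells, and the share of the list called higher was near them.

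Other transcription factors linked to EMT were split. Of 10 tested, 2 were higher in fibroblast than in epithelial wells, the PRRX1 relative Prrx2 (1.74) and Runx1 (1.68), and 5 were lower, led by the stem and Paneth cell factor Sox9 (-2.18) and the oncofetal Hmga2 (-1.59), where 21.1% of all genes were called higher and 19.4% lower. The 2 higher calls were near that share. Against myeloid wells 7 of 10 were higher and none lower, with Prrx2 at 4.19, beside 20.6% of all genes higher and 21.2% lower. Against lymphoid wells 6 were higher and Ets1, a lymphocyte factor, was lower (-4.29), beside 22.5% of all genes higher and 18.8% lower.

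Genes that these factors are known to repress, or that hold epithelial identity, had the opposite direction. All 16 tested junction and polarity genes were lower in fibroblast than in epithelial wells, with Tjp3 at -5.54, Pkp3 at -5.01, Marveld3 at -4.97 and St14 at -4.70 and a median of -4.10. All 6 tested epithelial guardian factors were lower as well, including Foxa2 (-5.46), the splicing regulator Esrp1 (-5.10), Grhl2 (-4.63) and Ehf (-4.23). All 16 tested mesenchymal genes were higher, with Postn at 8.0, Lox at 7.47, Tnc at 6.76 and Sparc at 6.41. Beside these counts, 19.4% of all genes were called lower and 21.1% higher. The classes were made with epithelial and collagen markers, so these directions were in large part set in advance. The epithelial class, in which Twist1 was highest, was also the one with the most of these junction transcripts. None of the lists bears on which factor acts on them.

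Against immune cells these lists behaved differently. Junction genes were lower in fibroblast than in myeloid wells for 2 of 16 (Tjp3 and Lsr) and higher for none, and against lymphoid wells 4 were lower (Pkp3, Marveld2, Tjp3 and Llgl2) and Jup was higher (2.15). Of the 6 guardian factors none was called against either. Mesenchymal genes were higher in 13 of 16 against myeloid wells, with Tgfbi lower (-4.11), and in 14 of 16 against lymphoid wells. Beside these counts, 20.6% of all genes were called higher and 21.2% lower against myeloid wells, and 22.5% and 18.8% against lymphoid wells.

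Genes whose levels over the 28 class and plate sums were most like each factor were found by Pearson correlation of log2(CPM + 10) among 9898 genes, as a description, since sums of 1 class resemble each other. Prrx1 was most like Col5a2 (0.97), Olfml2b (0.97) and Serpinh1 (0.96), Twist2 like Lama4, Tnc and Col5a3 (each 0.94), and Snai2 like Tfpi2 (0.92), Aoc3 (0.91) and Fbln7 (0.88). Zeb2 was most like Emilin2 (0.94), the lysosomal protease Ctsb (0.90) and the chemokine Ccl2 (0.90). Zeb1 was most like Slc43a3 (0.89), the TGF-beta receptor Tgfbr2 (0.85) and Lats2 (0.84), Snai1 like Kdelc2, Fndc3b and C1ra (0.82 to 0.83), and Twist1 like Hspb8 (0.91), Lap3 (0.87) and Dact1 (0.86). Among the factors themselves Twist2 and Prrx1 were most alike (0.88), and Twist1 and Zeb2 least (-0.40).

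Genotypes were compared within each class, the mouse being the replicate. Zeb1, the targeted gene, was read first. In fibroblast wells it had 91.5, 34.5 and 81 CPM in FibCtrl replicates 1, 3 and 4 and 47.6, 48.1 and 22.3 CPM in those of FibΔZeb1. The ranges overlapped, since FibCtrl replicate 3, with 7 transcripts in 12 wells, lay below 2 of the FibΔZeb1 plates and above the third. The plates left out had 0 transcripts in the 3 wells of FibCtrl replicate 2, whose exact interval reaches 49.8 CPM, and 44 CPM in the 6 wells of FibΔZeb1 replicate 2.

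The means of Zeb1 were 69 ± 30.3 and 39.3 ± 14.8 CPM (SD, n = 3 each), a difference of -29.7 CPM that did not pass an exact two-sided permutation test (p = 0.3, smallest possible 0.1). It was -18.4 CPM without FibCtrl replicate 1 and -46.9 CPM without FibCtrl replicate 3. Within flow cell 1 (1 plate per genotype) it was -43.9 CPM and within flow cell 2 (2 plates per genotype) -22.6 CPM. Loss of the floxed exon cannot be read from counts made at the 3′ end. After thinning to 10000 transcripts, Zeb1 was found in 53.3 ± 4.71% of fibroblast wells per plate in FibCtrl (SD, n = 2 plates). In FibΔZeb1 the share was 27.7 ± 9.66% (n = 3 plates), too few plates for a test. The FibCtrl share leaves out replicate 3, whose Zeb1 level of 34.5 CPM lay among the FibΔZeb1 values. Its 12 fibroblast wells had a median of 8741 transcripts, so fewer than 10 reached that depth. Pooled over plates, the shares were 50% of 58 FibCtrl wells (exact interval 36.6 to 63.4%) and 28.6% of 42 FibΔZeb1 wells (15.7 to 44.6%). These intervals overlapped. Without thinning Zeb1 was found in 42.9% of 119 and 36.4% of 66 fibroblast wells, at median depths of 9356 and 16629 transcripts. In lymphoid wells, where Zeb1 was not targeted, it had 39 ± 20.4 and 31.8 ± 17.3 CPM (n = 3 each).

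The other factors moved in both directions in fibroblast wells of FibΔZeb1. No gene passed adjustment in edgeR (0% of 7226 tested), with 2.84% at an unadjusted p below 0.05, and DESeq2 called 4 genes, none of them a member. All 7 factors were tested and each had an adjusted p of 1.

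Zeb2, the paralogue of Zeb1, had 97.3, 64 and 87.8 CPM in FibCtrl replicates 1, 3 and 4 and 181, 146 and 156 CPM in those of FibΔZeb1. Every FibΔZeb1 plate was above every FibCtrl plate, on a log2 difference of 0.93 ± 0.27 (SE, unadjusted p = 0.0077). Prrx1 had the reverse arrangement, 379, 291 and 298 against 232, 185 and 185 CPM, with a difference of -0.68 ± 0.26 (unadjusted p = 0.030). Among the 7 factors these 2 had ranges that did not overlap, where 7.45% of all tested genes had such ranges (3.87% higher and 3.57% lower in FibΔZeb1). Within flow cell 1 (1 plate per genotype) and flow cell 2 (2 plates per genotype) the difference in CPM was 84 and 75.2 for Zeb2. For Prrx1 it was -147 and -110. Ranges that lie apart over all plates fix the sign within each flow cell, so these values are no separate support.

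The remaining 4 overlapped. Twist1 was 165 ± 72.5 CPM in FibCtrl and 78.3 ± 17.9 CPM in FibΔZeb1, a log2 difference of -1.09 ± 0.37 (unadjusted p = 0.019), and epithelial RNA would carry 51.6 CPM of it in FibCtrl replicate 1. Snai1 differed by -0.78 ± 0.37, Twist2 by 0.99 ± 0.50 and Snai2 by 0.82 ± 0.66. The size of these differences moved with single plates. Snai1 was -0.44 without FibCtrl replicate 3, and Twist1 was -0.72 without FibCtrl replicate 1. Snai2 was 1.62 without FibCtrl replicate 1 and 0.45 without FibCtrl replicate 3. Twist2 ranged from 0.72 to 1.31 over the plates left out. All 4 kept their sign whichever plate was left out. In the small plates left out, FibΔZeb1 replicate 2 had 352 CPM of Zeb2 and 117 CPM of Prrx1, on 24 and 8 transcripts. The 3 wells of FibCtrl replicate 2 had 149 CPM of Zeb2 and 13.5 CPM of Prrx1, on 11 and 1 transcripts. With replicate 2 of FibCtrl included, neither gene would have had separate ranges.

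**Figure D4:**
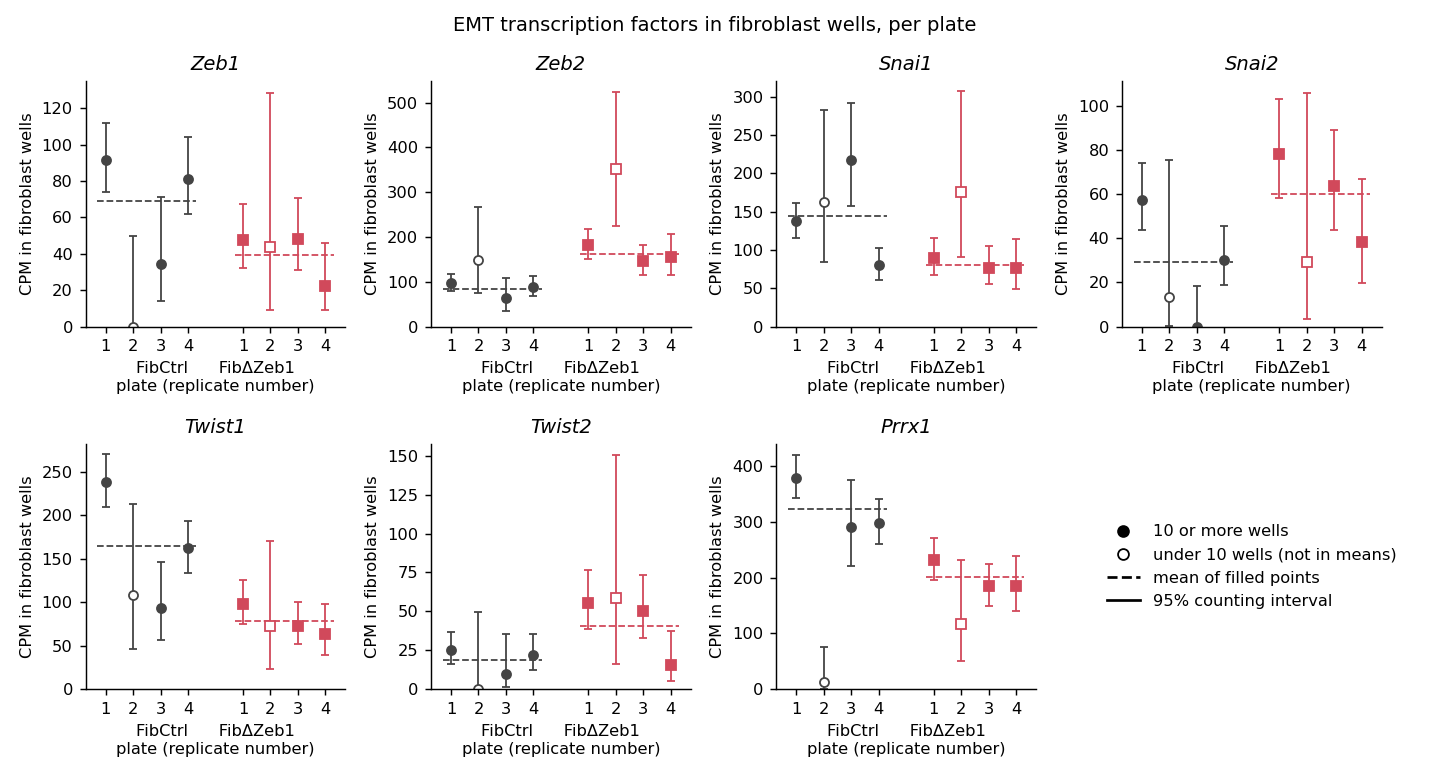
Each panel shows 1 factor in fibroblast wells, with CPM on the vertical axis and the plate (replicate number, FibCtrl left and FibΔZeb1 right) on the horizontal axis. Points carry exact Poisson 95% counting intervals, open points are plates under 10 wells and dashed lines are means of filled points. Zeb2 is higher and Prrx1 lower in all 3 filled FibΔZeb1 plates, and Zeb1 of FibCtrl replicate 3 (34.5 CPM) lies among the FibΔZeb1 values.

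Markers of other cells in the same fibroblast wells were measured for context. The summed level of 9 macrophage markers was 91.5 to 143 CPM in FibCtrl and 36.5 to 247 CPM in FibΔZeb1, that of 8 mural markers 143 to 365 and 41.4 to 688 CPM, and that of 7 mesothelial markers 100 to 705 and 149 to 624.7 CPM. The 10 epithelial markers summed to 173 to 308 CPM in FibCtrl and 90.3 to 210 CPM in FibΔZeb1. The 6 mast cell markers reached 0 to 128 CPM in FibCtrl and were at 0 in FibΔZeb1. Macrophage wells had 305 CPM of Zeb2 and 11 wells with mural markers had 311 CPM when pooled, above the fibroblast level, and their part in the Zeb2 values was not tested. The 12 fibroblast markers themselves summed to 57635 to 92503 and 67233 to 83496 CPM.

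Fibroblast wells were also divided on each plate at the median of contractile against matrix genes. Contractile genes such as Acta2 and Tagln mark myofibroblasts, and matrix genes such as Dpt, Lum and C3 mark matrix-rich or inflammatory fibroblasts. Zeb1 was 38.1 ± 23.6 CPM in the contractile wells and 67.3 ± 33.9 CPM in the matrix wells (SD, n = 6), higher in the contractile wells on 1 of 6 plates (exact sign-flip permutation p = 0.0625, smallest possible 0.031). Zeb2 was 105 and 138 CPM (exact p = 0.125), Snai1 157 and 76.9 CPM (exact p = 0.16) and Twist1 146 and 101 CPM (exact p = 0.125). None of the 7 factors passed this test.

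In the other classes few factors could be tested between genotypes. In epithelial wells, 0% of 10145 genes were called and 1.24% had an unadjusted p below 0.05. Twist1 was 460 ± 441 CPM in FibCtrl and 319 ± 275 CPM in FibΔZeb1 (SD, n = 4 each), a log2 difference of -0.52 ± 0.73 that became 0.43 without FibCtrl replicate 1, and Snai1 differed by -0.37 ± 0.70. No factor had ranges apart there, beside 1.13% of genes tested (0.542% higher, 0.591% lower). In myeloid wells, 0% of 4330 genes were called and 1.29% had an unadjusted p below 0.05. Zeb2 was 194 ± 74.4 CPM in FibCtrl and 288 ± 23 CPM in FibΔZeb1 (SD, n = 4 each), with a log2 difference of 0.55 ± 0.34 (unadjusted p = 0.134) and overlapping ranges. The make-up of the class differed between plates. FibCtrl replicate 2, with the lowest Zeb2 level at 116 CPM, held 22 neutrophil wells and no macrophage well, and its macrophage markers summed to 174 CPM against 2555 to 8677 CPM on the other plates. The part of this in the Zeb2 values was not tested, and the log2 difference was 0.45 without that plate. No factor had ranges apart in myeloid wells, where 1.48% of genes tested did (0.855% higher, 0.624% lower).

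In lymphoid wells, 0% of 2484 genes were called by edgeR, 5.31% had an unadjusted p below 0.05 and DESeq2 called 4, and no factor passed the filter. Zeb2 alone among the factors had CPM ranges apart in lymphoid wells, 20.5 ± 6.49 CPM in FibCtrl and 12.8 ± 0.669 CPM in FibΔZeb1 (SD, n = 3 each). These levels rest on 1 to 8 transcripts a plate. Of the genes tested, 10.4% had such ranges (4.79% higher, 5.64% lower), a share that leaves out Zeb2, which did not pass the filter. The Zeb1 difference of fibroblast wells was set against that of lymphoid wells in 1 fit, and the difference between them, -0.41 ± 0.97 (log2, SE, adjusted p = 1), did not pass and was 0.12 without FibΔZeb1 replicate 4. Of the lists above, no gene was called between genotypes in any class.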

How the data were processed

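Sorted single cells of 8 mouse colon tumours were measured by SORT-seq. According to the study's methods, read 2 was aligned with bwa to the Ensembl mouse transcriptome (GRCm38), and the submitters' processing notes also name Cell Ranger 2.1.1. The authors deposited estimated counts per gene and well, in which UMIs are adjusted for collisions and not for depth, and 87.1% of the values above 0 were whole within 1e-09. Whether counting used the strand, which decides how reads of Zeb1 and an antisense gene are divided, was not stated. The 89 spike-in and 37 mitochondrial rows were left out. No wells of different plates held identical values.

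Wells with at least 500 transcripts were classed by the marker list with the highest log2 score, if it led by 1 and at least 3 of its markers were detected. Fibroblast wells with at least 2 transcripts of Ptprc or Epcam were removed. The study likewise excluded cells high in these genes. No doublet caller was run, since wells received 1 sorted cell, and the sort gate of a well was not used here. Counts were summed per class and plate, rounded, and tested with the edgeR 4.0.16 quasi-likelihood test (R 4.3.3, TMM, filterByExpr), without a block between genotypes and with the plate as block between classes. P-values were adjusted by Benjamini-Hochberg over all genes tested, with a threshold of 0.05. DESeq2 1.42.0 was an alternative. Single values were tested by exact permutation (Python 3.11.15, scipy 1.17.1) and wells clustered with leidenalg 0.10.2. On simulated data of the size of the fibroblast genotype comparison (7226 genes), the fit recovered 21% of 4-fold and 0% of 2-fold changes, and for fibroblast against epithelial wells (8382 genes) 82% and 38%. Cells are not replicates, so the tests between cells of the study were not repeated.

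Named were the 7 factors, for each the 3 genes of most similar pattern over the class sums, and from each list up to 4 called genes of largest change, plus any gene of a direction called for 5 or fewer. The factors and lists were chosen with earlier results of these data known. Replicate numbers were not taken to pair the plates, because in no class did every same-number pair correlate above 0.1. The alternatives included another marker lead, other scaling, no filter, the flow cell, which was read from the file names, as covariate, a replicate block and leaving out each plate.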

Additional observations from a re-analysis of the deposited data

Results flagged for a closer look

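Of 28 sets of 4 plates (a factor in the epithelial or myeloid wells of 1 genotype), 2 held a plate whose gap to the others exceeded the 95% critical value of Dixon's test. Chance alone gives such a gap in about 1 in 20 sets. In epithelial wells of FibCtrl, Twist2 was 4.24 CPM in replicate 1, on 11 transcripts, and 0.581 CPM in the next plate. In myeloid wells of FibCtrl, Twist1 was 152 CPM in the 14 wells of replicate 1, on 20 transcripts, and 15.8 CPM in the next plate. Epithelial RNA measured by its markers would carry 78.8 CPM of Twist1 in those wells, and its part in the value was not tested.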

How the results depend on the processing

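The factors kept their sign in 255 of 255 alternative values between classes and in 171 of 173 between genotypes. The exceptions were in epithelial wells, Snai1 at 0.11 with Leiden clusters and Twist1 at 0.43 without FibCtrl replicate 1 (-1.32 to 0.43 over plates left out). The Zeb1 contrast between fibroblast and lymphoid wells ranged from -1.17 to 0.12 when plates were left out and was 0.12 without FibΔZeb1 replicate 4. With no filter, 1 gene was called between genotypes in fibroblast, 49 in myeloid and 53 in lymphoid wells, and 5274 between fibroblast and epithelial wells, in each case with more genes tested. DESeq2 called 4 genes each in fibroblast and in lymphoid wells. Leaving out plates gave 0 to 1 calls in myeloid wells (1 without FibCtrl replicate 1) and 2998 to 3599 between fibroblast and epithelial wells. RLE scaling moved the median of all genes between fibroblast and myeloid wells from 0.03 to 0.17, and Zeb2 was -0.87 there. The Zeb1 difference in fibroblast wells ranged from -46.9 to -18.4 CPM without 1 plate, -18.4 without FibCtrl replicate 1 and -46.9 without FibCtrl replicate 3.

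Same-numbered plates had correlated deviations of 0.18, -0.056 and 0.10 in fibroblast, 0.50, 0.33, 0.21 and 0.050 in epithelial, 0.41, 0.39, -0.023 and 0.18 in myeloid, and -0.24 and -0.085 in lymphoid wells. In no class did every pair exceed 0.1, so the numbers were not taken as pairs, although plates numbered 1 and 2 were most alike in epithelial and myeloid wells. With a replicate block, 0 genes were called between genotypes in each of the 4 classes and the Zeb1 difference of -29.7 CPM had an exact sign-flip p of 0.5. Shares of wells with a transcript moved with thinning in 37 of 42 values. Depth limits the scarce factors most, since Zeb1 rested on 7 transcripts in FibCtrl replicate 3 and in FibΔZeb1 replicate 4, and both replicates 2 had too few fibroblast wells to enter.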

Other observations

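The factors were also read in smaller sets of wells. In 11 wells with markers of mural cells, the contractile cells of small vessels, 9 of them from FibΔZeb1 replicate 1, the pooled levels were 311 CPM of Zeb2, 284 CPM of Twist1, 263 CPM of Prrx1, 138 CPM of Snai1, 76.1 CPM of Snai2, 62.3 CPM of Zeb1 and 27.7 CPM of Twist2. Within the myeloid class, 11 wells with mast cell markers had 106 CPM of Zeb2 on 8 transcripts, and Snai1, Snai2, Twist2 and Prrx1 had no transcript. Within the lymphoid class, Zeb1 and Zeb2 had 2 transcripts each in 10 wells with natural killer cell markers.

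Leiden clusters named for fibroblast markers differed in these factors as well. They are described with no test, and include wells that the marker rule left out of the class. Cluster 12, whose leading genes include Dcn, Col3a1 and Dpt, had 80.9 CPM of Zeb1 and 60.2 CPM of Snai1. Cluster 9, whose leading genes include Igfbp7, Col4a1 and Col15a1, had 45 CPM of Zeb1, 158 CPM of Snai1 and 167 CPM of Zeb2. Cluster 16, whose leading genes include Dcn, C3 and Clu, had 32.8 CPM of Zeb1, 140 CPM of Snai1 and 135 CPM of Prrx1, and drew 42.9% of its wells from 1 plate. Snai2 was 73.1 CPM in cluster 9, 37.3 CPM in cluster 12 and 11.9 CPM in cluster 16.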
